A study of Homo sapiens with 4 samples.

Results

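The genes described here are the superoxide dismutases (SOD1, SOD2 and SOD3), catalase (CAT) and the peroxiredoxins (PRDX1 to PRDX6). They were taken from the count table by gene symbol, and the family was picked with earlier results of these data known. They make up 10 of the 36359 genes in that table. All 10 had enough reads to be tested, among 21630 genes that did. The cells were ACHN, a human line derived from a renal cell carcinoma. They received by lipid transfection either the control siRNA siNC or siRNA against PRR11 (siPRR11), and RNA was sequenced from 2 libraries of each. All libraries came from the same line, grown in MEM with serum. The siPRR11 duplex used for a given library is not stated in the sources used here, and neither is whether the 2 libraries of a group came from separate cultures. If they did not, the p-values below measure technical spread alone.

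These enzymes form the first enzymatic line against reactive oxygen species. A superoxide dismutase turns superoxide into hydrogen peroxide, with copper and zinc in the cytosol (SOD1), with manganese in the mitochondrial matrix (SOD2), or with copper and zinc outside the cell (SOD3). Hydrogen peroxide is then broken down by catalase in peroxisomes and by the peroxiredoxins, which attack it with a reactive cysteine that is afterwards reduced by thioredoxin or glutathione. Proximal tubule cells, from which many renal carcinomas are thought to arise, are rich in mitochondria and peroxisomes. The study concerns oxidative DNA damage after PRR11 silencing, and SOD2 protein was among the proteins it followed on blots. The counts hold no information on protein or enzyme activity.

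The reactive (peroxidatic) cysteine is what makes a peroxiredoxin, so the codons that lead up to it are shown for the 6 genes, read 5′ to 3′ from the coding strand of GRCh38. Each run of 24 bases starts at the codon of a conserved proline and ends with the codon of the cysteine, which is in capitals. The runs of PRDX3 and PRDX4 cross an exon boundary and are written as spliced.
PRDX1: cctcttgacttcacctttgtgTGC
PRDX2: cctctggacttcacttttgtgTGC
PRDX3: cctttggatttcacctttgtgTGT
PRDX4: ccacttgatttcacatttgtgTGT
PRDX5: cctggggccttcacccctggaTGT
PRDX6: cctcgggactttaccccagtgTGC
The pattern occurred once in each coding sequence. The cysteine is codon 52 of PRDX1 (chr1:45515758-45515781, minus strand), codon 51 of PRDX2 (chr19:12801020-12801043, minus strand), codon 100 of PRDX5 (chr11:64319839-64319862, plus strand) and codon 47 of PRDX6 (chr1:173481348-173481371, plus strand). In PRDX3 it is codon 108 (chromosome 10, minus strand) and in PRDX4 codon 124 (chromosome X, plus strand). PRDX1 and PRDX2, both cytosolic, differed at 2 of the 24 bases, whereas PRDX1 differed from PRDX5 at 9 and from PRDX6 at 6. PRDX1 to PRDX4 are the typical 2-Cys enzymes, which work as pairs of subunits. PRDX5 is an atypical 2-Cys enzyme and PRDX6 has a single active cysteine. Over whole coding sequences the closest pair, PRDX1 and PRDX2, was 73.2% identical over 593 aligned bases. The longest run of bases shared by the canonical transcripts of any pair of peroxiredoxins was 17, between PRDX1 and PRDX4, and for the dismutases it was 11.

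Levels were compared between genes as the RPKM that the authors deposited, which is reads per kilobase of exon and per 1000000 counted reads. PRDX5 was highest, with 556.1 and 543.5 RPKM in the siNC libraries and 458.7 and 474.0 RPKM in the siPRR11 libraries. PRDX1 followed with a mean of 285.8 RPKM over the 4 libraries, and SOD1 with 194.0 RPKM. These 3 genes stood above 99% of the genes tested, at percentiles of 99.7, 99.4 and 99.1 of the mean RPKM. A gap then separated them from PRDX6 at 30.3 RPKM, PRDX3 (the mitochondrial peroxiredoxin) at 23.7 RPKM and CAT at 13.0 RPKM. The lowest means were 9.27 RPKM for PRDX4, 5.47 RPKM for PRDX2, 4.02 RPKM for SOD2 and 2.54 RPKM for SOD3. For every pair of neighbours in this order, the ranges over the 4 libraries did not overlap. Relative to the level, the spread was widest for SOD2, from 2.92 to 5.09 RPKM.

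**Figure D1:**
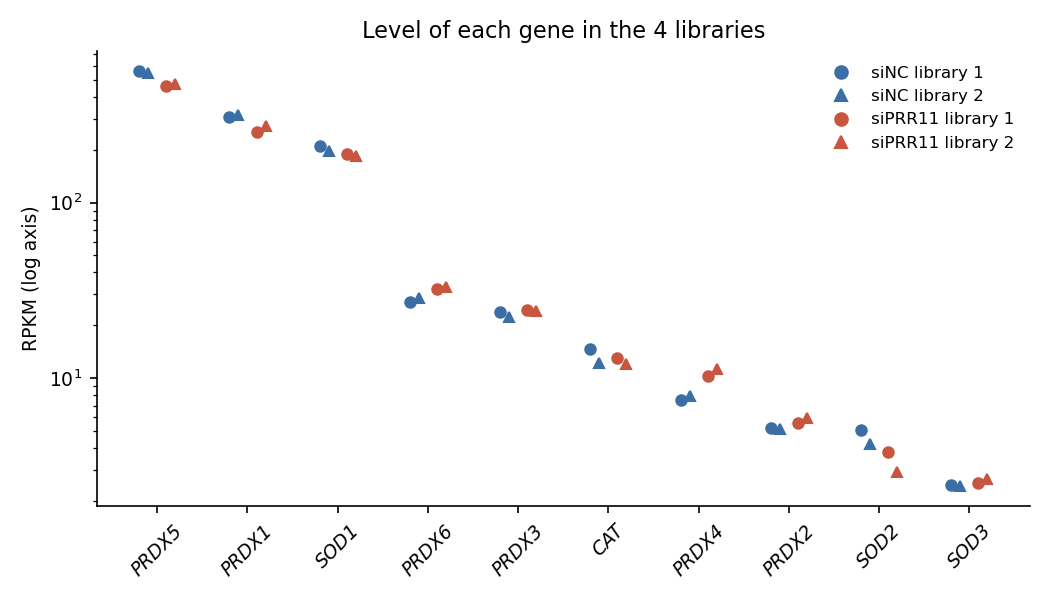
RPKM of the 10 genes (log axis) in each of the 4 libraries, with siNC in blue and siPRR11 in red, circles for library 1 and triangles for library 2 of each group, in order of the mean. PRDX5, PRDX1 and SOD1 lie above 180 RPKM in every library and the other 7 genes below 40 RPKM.

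The place of SOD2 in this order rests on the length it is divided by. The table gives SOD2 18985 exonic bases on chromosome 6 of GRCh38 (159669057 to 159762529, minus strand), in 11 exon blocks. Its canonical transcript has 14167 bases, of which 666 are coding. With the same reads divided by the length of the coding sequence, SOD2 came to 115.0 normalized counts per 1000000 (CPM) per kilobase, behind SOD1 (848.9), PRDX1 (730.0) and PRDX5 (708.0) and beside PRDX6 (106.8) and PRDX3 (105.4), whose ranges over the 4 libraries lay within that of SOD2. Divided by the canonical transcript, it was 5.41 CPM per kilobase and overlapped SOD3 alone. The 3 highest genes stayed the highest under each length, although their own order changed. These lengths were chosen after seeing the data. The reads were counted over all exonic bases, so division by the coding length raises a gene with long noncoding stretches. For SOD2 that value is no estimate of its level.

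Silencing was checked on PRR11 itself (chromosome 17, 59155499 to 59204705, plus strand). Its level was 41.3 and 40.4 CPM in the siNC libraries and 15.3 and 14.0 CPM in the siPRR11 libraries, so 35.9% remained. The log2 fold change was -1.48 (SE 0.0909, adjusted p = 3.35e-06). Here and below, CPM is counts per 1000000 scaled by edgeR's TMM factors, and p-values come from its quasi-likelihood test, adjusted over the 21630 genes. The libraries held between 59003839 and 92612749 counted reads. Counting error was small for the abundant members, where precision was set by how far libraries of the same group differed. SOD3 (308 to 503 reads a library), PRDX2 (633 to 1086) and PRDX4 (890 to 1819) had the fewest reads. Of 10 renal epithelial markers, 8 exceeded 1 RPKM in every library, among them PAX8 and KRT8, whereas the endocytic receptors LRP2 and CUBN of the proximal tubule were under 0.02 RPKM on average in both groups. Of 5 leukocyte markers, CD68 alone exceeded 1 RPKM in every library, with the summed list between 20.9 and 26.1 RPKM in siNC and between 25.9 and 28.5 RPKM in siPRR11, and PTPRC was near 0. The summed renal markers ranged from 330.4 to 392.1 RPKM in siNC and from 382.5 to 414.9 RPKM in siPRR11. Single renal markers moved in both directions. EPCAM fell (log2 fold change -0.65), and KRT18, CDH1 and CDH16 rose (0.36, 0.54 and 0.50), each with an edgeR adjusted p under 0.05. The summed fibroblast markers ranged from 4.35 to 5.02 RPKM in siNC and from 7.91 to 10.1 RPKM in siPRR11. Of these, COL1A1 alone exceeded 1 RPKM in every library, and it rose (log2 fold change 0.90, edgeR adjusted p = 0.000329). COL1A2 and PDGFRA were not called (-0.23 and 0.64). The summed endothelial markers ranged from 0.0263 to 0.0299 RPKM in siNC and from 0.0497 to 0.0502 RPKM in siPRR11. The part of all these markers in the results below was not tested.

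After PRR11 silencing 4 of the 10 genes passed an adjusted p-value of 0.05, which 16.7% of all genes tested did. SOD2, PRDX1 and PRDX5 fell and PRDX4 rose (9.14% of all genes tested were called lower and 7.61% higher). The other 6 genes did not pass, and SOD1 and PRDX6 among them had an unadjusted p-value under 0.05, as did 30.3% of all genes tested. The groups did not overlap for 7 of the 10 genes, against 58.4% of all genes tested. The median log2 fold change of the 10 genes was -0.06, beside 0.0022 for all genes tested. The changes were small, with every estimate between -0.52 and 0.44 on the log2 scale. With any of the 4 libraries left out, between 1 and 6 genes passed (1 without siPRR11 library 2, 2 without siPRR11 library 1 and 6 without siNC library 2). It was 1 (PRDX4) with limma on log2(RPKM + 1), where SOD2, PRDX1 and PRDX5 had adjusted p-values of 0.14, 0.103 and 0.122.

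**Figure D2:**
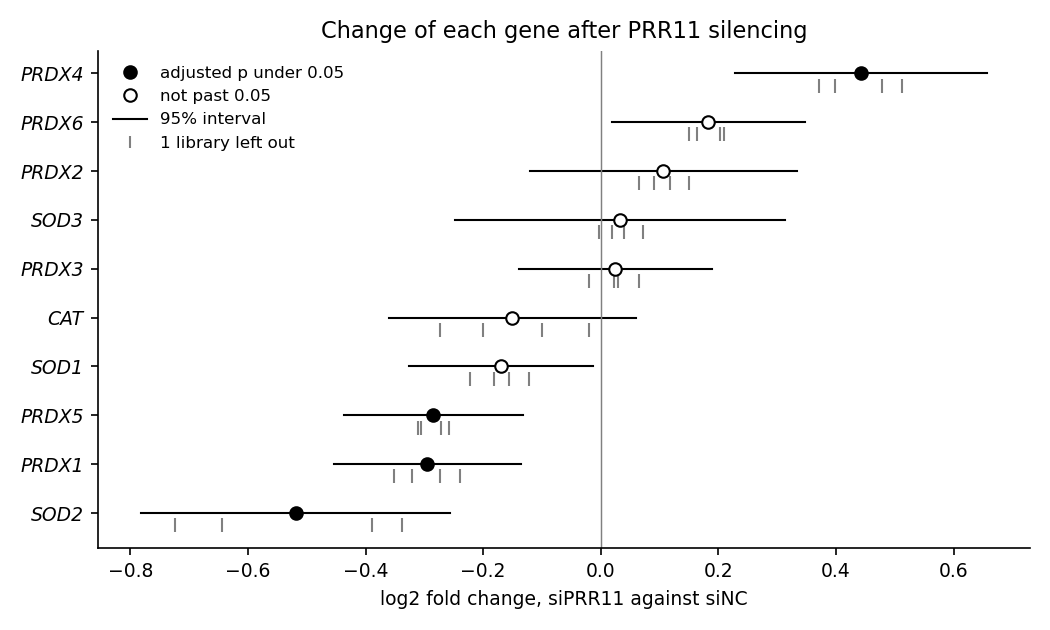
Log2 fold change of siPRR11 against siNC (x axis) for the 10 genes from edgeR's quasi-likelihood test. Filled points passed an adjusted p-value of 0.05, lines are 95% intervals, and grey ticks are the estimates with 1 library left out. SOD2 at -0.52 is the lowest and PRDX4 at 0.44 the highest.

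Among the dismutases, SOD2 mRNA was lower in silenced cells. It lay at 98.1 and 82.3 CPM in the siNC libraries and at 71.4 and 54.6 CPM in the siPRR11 libraries. Both silenced libraries were below both controls, and within each group library 1 was above library 2. The mean went from 90.2 ± 11.2 CPM to 63.0 ± 11.9 CPM (SD, n = 2 each), 69.8% of the control level. This was a log2 fold change of -0.52 (SE 0.121, 95% interval -0.78 to -0.26, edgeR adjusted p = 0.0123). Without siPRR11 library 2, the lower of the silenced libraries, the log2 fold change was -0.34 with an adjusted p of 0.0698 from edgeR, and the call did not hold. Without siPRR11 library 1 it was -0.72.

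Reads of SOD2 could be mixed with those of its neighbours on the other strand, since the use of strand in counting is not given in the sources used here. Exons of ACAT2 cover 9.74% and exons of WTAP 2.3% of the exonic bases of SOD2. ACAT2, a thiolase of lipid metabolism, was at 60.8 CPM in siNC and 71.3 CPM in siPRR11 (log2 fold change 0.23, edgeR adjusted p = 0.0803). WTAP, part of the RNA methylation complex, was at 73.8 and 70.5 CPM (log2 fold change -0.07, edgeR adjusted p = 0.606). Neither gene passed the threshold. Among the genes closest to SOD2 over the 4 libraries, by the distance between centred log2 CPM values among 10423 genes whose mean log2 CPM reached 3, were HSPB8 (distance 0.0435) and PCLO (0.0881). Their log2 fold changes were -0.54 and -0.43. Values near that of SOD2 follow from the choice, since these genes were picked on the same 4 libraries. SOD2 was also the member with the lowest log2 fold change.

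SOD1, the cytosolic enzyme (chromosome 21, 31659622 to 31668931, plus strand), was the most abundant dismutase. Its level was 429.4 and 401.0 CPM in the siNC libraries and 372.7 and 365.6 CPM in the siPRR11 libraries. The groups did not overlap, but the difference (log2 fold change -0.17, 95% interval -0.33 to -0.013) had an edgeR adjusted p of 0.135. It passed without siNC library 2 (edgeR adjusted p = 0.0484). SOD3, the secreted enzyme (chromosome 4, 24789912 to 24800842, plus strand), was low at 5.38 and 5.31 CPM in siNC and 5.34 and 5.61 CPM in siPRR11, from 308 to 503 reads a library. Its groups overlapped, and the 95% interval of its log2 fold change ran from -0.25 to 0.31.

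Catalase (chromosome 11, 34438925 to 34472062, plus strand) was at 49.8 and 41.8 CPM in the siNC libraries and 42.8 and 39.9 CPM in the siPRR11 libraries. The groups overlapped, and the log2 fold change of -0.15 (95% interval -0.36 to 0.06) had an edgeR adjusted p of 0.328. Without siNC library 2, the lower control, it was -0.27 (edgeR adjusted p = 0.0373), and without siNC library 1 it was -0.021.

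The most abundant peroxiredoxins, PRDX1 and PRDX5, fell by similar amounts. PRDX1, a cytosolic enzyme (chromosome 1, 45511036 to 45523047, minus strand), had 471.9 and 488.4 CPM in the siNC libraries and 376.4 and 406.5 CPM in the siPRR11 libraries, a log2 fold change of -0.29 (SE 0.0731, edgeR adjusted p = 0.0171). PRDX5, found in mitochondria, peroxisomes and cytosol (chromosome 11, 64318088 to 64321811, plus strand), had 504.7 and 493.9 CPM in siNC and 402.4 and 417.1 CPM in siPRR11, a log2 fold change of -0.29 (SE 0.0697, edgeR adjusted p = 0.016). Silenced cells thus held 81.5% of the control level of PRDX1 and 82.1% of that of PRDX5, and for each gene the gap between the groups was larger than the spread within them. With 1 silenced library left, the calls were not stable. Without siPRR11 library 1 the log2 fold change was -0.24 for PRDX1 and -0.26 for PRDX5 (edgeR adjusted p = 0.196 and 0.148). Without siPRR11 library 2 it was -0.35 and -0.31 (edgeR adjusted p = 0.0248 and 0.0551), so the call of PRDX5 was lost with a slightly larger estimate. Exons of MMACHC on the other strand cover 24.9% of the exonic bases of PRDX1, and MMACHC was at 46.6 CPM in siNC and 42.7 CPM in siPRR11 (edgeR adjusted p = 0.336).

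PRDX4, the peroxiredoxin of the endoplasmic reticulum (chromosome X, 23664262 to 23686399, plus strand), rose from 14.5 and 15.4 CPM in the siNC libraries to 19.3 and 21.3 CPM in the siPRR11 libraries. Its level in silenced cells was 135.8% of the control level, a log2 fold change of 0.44 (SE 0.0984, 95% interval 0.23 to 0.66, edgeR adjusted p = 0.00967). It was the one member that passed with limma on log2(RPKM + 1), where the adjusted p was 0.0325. The call was lost without siPRR11 library 2, with a log2 fold change of 0.37 and an adjusted p of 0.111 from edgeR. No exon of another gene overlaps those of PRDX4 in the table.

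**Figure D3:**
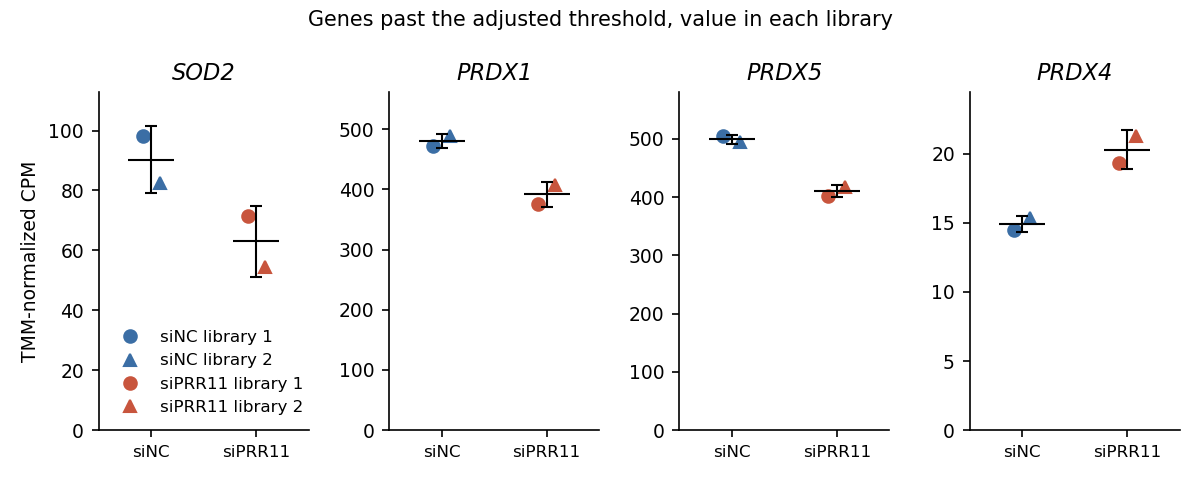
TMM-normalized CPM (y axis from 0) in each library for SOD2, PRDX1, PRDX5 and PRDX4, with siNC in blue, siPRR11 in red, circles for library 1 and triangles for library 2. Horizontal bars are means and whiskers are SD of 2 libraries, and in every panel the groups do not overlap.

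The other peroxiredoxins did not pass the threshold. PRDX6, which also has phospholipase activity (chromosome 1, 173477266 to 173488807, plus strand), was at 65.8 and 68.6 CPM in siNC and 75.3 and 77.3 CPM in siPRR11 (log2 fold change 0.18, 95% interval 0.019 to 0.35, edgeR adjusted p = 0.122). PRDX3, in mitochondria like SOD2 (chromosome 10, 119167703 to 119178833, minus strand), was at 82.5 and 77.9 CPM in siNC and 81.8 and 81.4 CPM in siPRR11, with overlapping groups and a 95% interval of the log2 fold change from -0.14 to 0.19. PRDX2, known for its abundance in red blood cells (chromosome 19, 12796820 to 12801859, minus strand), was low here at 11.1 and 10.9 CPM in siNC and 11.5 and 12.2 CPM in siPRR11 (log2 fold change 0.11, 95% interval -0.12 to 0.33), and its groups did not overlap. Exons of CTD-2659N19.10 on the other strand cover 14.1% of the exonic bases of PRDX2. For PRDX3 and PRDX2 these intervals leave out a change of 0.5 on the log2 scale in either direction, as they do for 8 members in all. Summed over the 6 peroxiredoxins, RPKM was 925.0 and 922.8 in the siNC libraries and 783.1 and 819.5 in the siPRR11 libraries. This sum is made mainly of PRDX5 and PRDX1. PRDX5 alone gave between 46.3% and 48.1% of the summed RPKM of all 10 genes in each library.

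The peroxiredoxins depend on partners that reduce them again, and 3 genes of a wider list around this recycling passed the threshold. The counts of this and the following lists stand beside the 16.7% of all genes tested that passed, and none was tested as a set. Of 10 genes of thioredoxin and peroxiredoxin recycling, 2 fell, 1 rose and 7 did not pass (median log2 fold change 0.08). SRXN1, the sulfiredoxin that rescues over-oxidized 2-Cys peroxiredoxins, fell from 56.6 and 77.1 CPM in siNC to 29.4 and 41.5 CPM in siPRR11 (log2 fold change -0.91, SE 0.158, edgeR adjusted p = 0.00244). TXNRD1, the cytosolic thioredoxin reductase, fell from 1189 and 1487 CPM to 736.3 and 866.0 CPM (log2 fold change -0.74, SE 0.108, edgeR adjusted p = 0.000876). SESN1, a sestrin induced by p53, rose from 10.5 and 10.1 CPM to 19.1 and 17.9 CPM (log2 fold change 0.85, SE 0.0998, edgeR adjusted p = 0.00024). For none of these genes did the groups overlap. TXN, the thioredoxin that TXNRD1 reduces, was at 111.8 and 121.2 CPM in siNC and 118.0 and 125.4 CPM in siPRR11 (log2 fold change 0.06, edgeR adjusted p = 0.637). TXNIP, which binds thioredoxin, varied more within groups than between them, with 38.0 and 6.17 CPM in siNC and 56.1 and 25.5 CPM in siPRR11.

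Glutathione peroxidases break down the same substrate as catalase and the peroxiredoxins. Of 9 genes, the 8 glutathione peroxidases and glutathione reductase, 7 were tested and 1 passed (median log2 fold change 0.05). This was GPX3, the secreted enzyme made by kidney tubules, which rose from 4.29 and 4.98 CPM to 8.60 and 8.28 CPM (log2 fold change 0.87, edgeR adjusted p = 0.00101). GPX1, cytosolic, had a log2 fold change of 0.05 (edgeR adjusted p = 0.795) and GPX4, which acts on lipid peroxides, of -0.05 (edgeR adjusted p = 0.699). For copper delivery, on which SOD1 and SOD3 depend, 3 of 6 genes passed (median 0.03), but 0 did under either limma fit. ATP7B and the chaperone ATOX1 rose, by 0.81 and 0.30 on the log2 scale (edgeR adjusted p = 0.00358 and 0.042), and the copper pump ATP7A fell by 0.75 (edgeR adjusted p = 0.00559). CCS, which loads copper into SOD1, had a log2 fold change of 0.24 (edgeR adjusted p = 0.206).

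Of 15 genes for oxidases that make superoxide or hydrogen peroxide, 8 were tested and 0 passed in edgeR's quasi-likelihood test (median -0.20). The unadjusted p-value was under 0.05 for 2 of them, CYBA and NCF4. NOX5, CYBB, NCF4 and DUOX2 had at most 36 reads in any library, so their fold changes rest on few reads. With DESeq2, edgeR's exact test or a minimum of 10 counts, 1 passed. With no filter on low counts, or with the replicate number as a block, 2 passed. CYBA, a membrane subunit shared by some of these oxidases, was the abundant one. It had 170.4 and 152.4 CPM in siNC and 188.7 and 192.6 CPM in siPRR11 (log2 fold change 0.24, edgeR adjusted p = 0.0542). NOX1 and NOX4 had too few reads to be tested. Of 21 genes for peroxisomes, where catalase resides, 1 rose and 1 fell (median 0.03), and 0 passed under either limma fit. PXMP4, a peroxisomal membrane protein, rose by 0.72 on the log2 scale (edgeR adjusted p = 0.00912), and PEX5, the receptor that carries catalase and other enzymes into the peroxisome, had a log2 fold change of -0.32 (edgeR adjusted p = 0.0415). Of 12 genes for regulators of antioxidant genes, 1 passed (median -0.06). NFE2L1, a relative of NFE2L2, fell from 547.6 and 504.7 CPM to 409.4 and 395.7 CPM (log2 fold change -0.39, edgeR adjusted p = 0.00421). NFE2L2 and its inhibitor KEAP1 had log2 fold changes of 0.022 and -0.021, and FOXO3, known to act on SOD2 and CAT, of -0.06, with edgeR adjusted p-values of 0.872, 0.898 and 0.707.

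**Figure D4:**
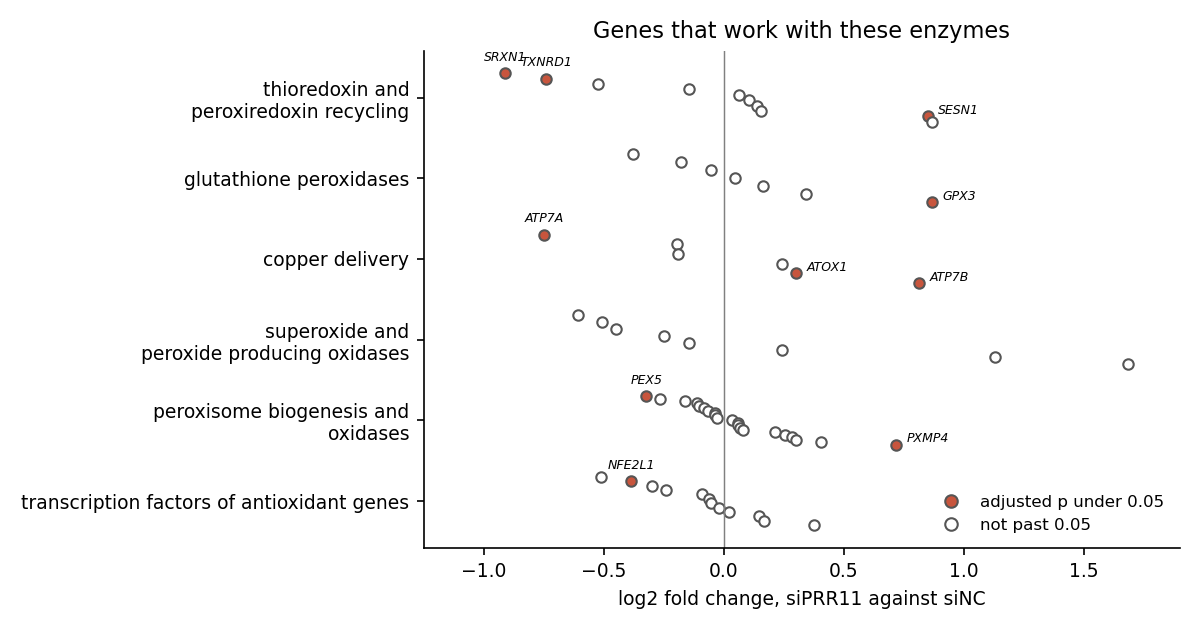
Log2 fold change of siPRR11 against siNC (x axis) for the tested genes of 6 lists that work with these enzymes, 1 point a gene. Filled and named points passed an adjusted p-value of 0.05 in edgeR's quasi-likelihood test, and the list of thioredoxin and peroxiredoxin recycling holds SRXN1 at -0.91 and SESN1 at 0.85.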

How the data were processed

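Libraries were made with a stranded mRNA kit. The authors trimmed reads with Trimmomatic 0.36, used STAR for alignment to GRCh38, and obtained gene counts from featureCounts (versions from the submitters' processing notes, which also name Subread 1.5.1). They deposited raw counts per gene, and RPKM values that equal the count per kilobase of exon and per 1000000 counted reads. Annotation release, strand setting and multi-mapping reads are not given in the sources used here. Groups came from sample titles. Counts were tested over all genes with edgeR 4.0.16 (TMM, filterByExpr, condition as the only term, quasi-likelihood test, Benjamini-Hochberg adjustment, threshold 0.05). SE is the size of the log2 fold change divided by the square root of F. The test was run on simulated counts. Alternatives were RLE, DESeq2 1.42.0, edgeR's exact test, other filters, a replicate block, limma 3.58.1 with a trend on log2(RPKM + 1) and log2(RPKM + 0.1), an unadjusted threshold, other lengths for levels, and each library left out, where the lone library of a group is assumed to vary like the other group. Limma fold changes are on the log2(RPKM + pseudocount) scale.

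The members and lists were chosen with earlier results of these data known. Named genes are PRR11, all members, up to 4 genes past the threshold with the largest change in each list, 9 genes chosen for their role (TXN, TXNRD1, SRXN1, GPX1, GPX4, CCS, NFE2L2, KEAP1 and FOXO3) and the 3 genes closest to SOD2, of which 1 is not reported here. ACAT2, WTAP, MMACHC, CTD-2659N19.10, TXNIP, CYBA, NCF4, NOX1, NOX4, NOX5, CYBB, DUOX2, EPCAM, KRT18, CDH1, CDH16, COL1A1, COL1A2 and PDGFRA were added after their values were seen. Base sequences and transcript lengths came from GRCh38 with GENCODE release 44, in which 99.81% of 23360 shared symbols lay at the same place as in the table. Other places resembling the coding sequences were found with minimap2.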

Additional observations from a re-analysis of the deposited data

How the results depend on the processing

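PRR11 kept its direction and its call under all 12 other fits. The log2 fold change of SOD2 was -0.38 and -0.47 with limma on log2(RPKM + 1) and log2(RPKM + 0.1), short of the threshold, and -0.72 to -0.34 when each library was left out. The count of members past the threshold was 1 under both limma fits, 1 to 6 with each library left out and 6 at an unadjusted threshold. Over all genes it was 3622, and 1775 and 1878 under the limma fits, 2172 to 4590 with a library left out and 6553 unadjusted. Calls that were higher made up 45.4% in the main test and 61.5% and 61.3% under limma. For the related lists together it was 10, and 4 under each limma fit. Signs turned for SOD3 (-0.0036 to 0.0711 with a library left out) and PRDX3 (-0.0203 to 0.0651), neither past the threshold. Dividing levels by the canonical transcript or the coding sequence left 4 and 6 neighbouring pairs overlapping, against 0. With the replicate number as a block, 6988 genes and 19 related genes passed, SOD1 and PRDX6 joined the members past it (adjusted p = 0.0267 and 0.0204 from edgeR) and SOD2 stayed at -0.52. Deviations of same-numbered libraries correlated at 0.482 over 14193 genes, but nothing in the labels says that a number marks a shared culture, so this fit was not preferred. The cause of these differences was not tested. RLE, DESeq2, the exact test and other filters changed no call of a member. For the abundant members, a pair of libraries per group limits the precision, not depth.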

Other observations

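The copies of these genes that are listed by symbol took few reads, though the handling of multi-mapping reads is not known. The table lists 7 processed copies of SOD1, SOD2, PRDX1, PRDX2 and PRDX3, and the highest count of any of them in any library was 6 reads. The closest copy of PRDX1 (chromosome 9, 12972849 to 12973438) matched 99.5% of its coding sequence at 93.6% identity. Places resembling PRDX2 (chromosomes 6 and 10), PRDX3 (chromosome 7), PRDX5 and PRDX6 have no copy listed by symbol, and their reads were not examined. The search found no such place for SOD3, CAT or PRDX4, nor for SOD2, although the table lists SOD2P1 with 0 reads in every library. In the RefSeq promoter table (GRCh38.p14), 7 of the 10 members have 11 windows around their starts. The antioxidant response core TGACNNNGC, the forkhead site GTAAACA and a single NF-kB pattern, searched on both strands, occurred in 0 of these windows. Among all 35116 windows, 13.3%, 3.42% and 1.91% held these patterns. The NF-kB pattern allowed only T at some positions. NF-kB sites with another base there were not searched for, so their absence from the windows of SOD2 or other members was not shown. SOD1, PRDX1 and PRDX6 have no window in that table, so the search does not cover them. SOD2 has more of the 11 windows than any other member. The windows are short (that of CAT runs from 34438684 to 34438983 on chromosome 11), and sequence outside them was not searched. Whether the family holds fewer of these sites than other genes was not tested.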
